A study of Homo sapiens with 8 samples.

Results

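RASA3, ADAP1, RAPGEF4 and TBC1D22A are 4 genes for regulators of small GTPases, and they were picked out of 20007 protein-coding genes because they lie nearest to the highest-ranked regions at which acetylation of lysine 27 on histone H3 (H3K27ac), a mark of active promoters and enhancers, was lost or gained. H3K27ac was profiled by chromatin immunoprecipitation and sequencing (ChIP-seq) in pancreatic progenitors (PPs) made from the human embryonic stem cell line MEL1, given in the study's methods as MEL1 INS GFP/W, with GFP at the insulin gene. Both groups grew in the same basal medium EF6, which contains EGF, bFGF and the TGFβ inhibitor 616452. The control group received the solvent DMSO and the other group received 1 μM I-BET151, an inhibitor that keeps BET proteins off acetylated histones, for 7 days. Each group had 2 H3K27ac libraries, and the 8 libraries of the series included 4 inputs of chromatin that was not immunoprecipitated. The labels do not say whether the 2 libraries of a group came from separate cultures, so the spread between them may be technical, and all cells derive from a single line.

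Small GTPases act as switches that are on when bound to GTP and off when bound to GDP. Guanine nucleotide exchange factors (GEFs) load GTP and switch them on, and GTPase-activating proteins (GAPs) speed up GTP hydrolysis and switch them off. RASA3 is a GAP for RAS and RAP1, ADAP1 is a phosphoinositide-binding GAP for ARF6, and TBC1D22A carries the TBC domain found in GAPs for RAB proteins, which direct vesicle traffic. RAPGEF4, also known as EPAC2, is a GEF for RAP1 that is activated by cyclic AMP and is known in pancreatic β cells for its role in insulin secretion.

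All peaks in the body of each gene and 50 kb either side were read from the peak list of each library. Overlapping peaks of the 4 libraries (1 bp or more in common) were joined into regions. A lost region had a peak in each DMSO library and none in I-BET151, and a gained region the reverse. The 4 windows held 27 of the 15752 regions of the genome and 70 peaks, of which 22 and 25 were in the DMSO libraries and 11 and 12 in the I-BET151 libraries. Of the 27 regions, 10 were lost, 1 was gained, 10 were called in all 4 libraries, and 6 were called in a single DMSO library. Over all regions 8.6% were lost and 2.81% were gained. Since the genes were chosen for such regions, their counts and levels describe the 4 loci and were not tested.

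The loci were chosen by 4 regions. Ranked by the lower −log10 q-value of the 2 libraries that called them, the lost region of ADAP1 was number 1 of 1355 lost regions at 46.9, that of RASA3 was number 2 at 46.5, and that of TBC1D22A was number 3 at 44.8. The gained region of RAPGEF4 was number 1 of 443 gained regions at 47.6. The other lost regions of the windows ranked from 69 to 844.

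The 201 bases around the summits of the 3 lost regions among these are shown with CpG dinucleotides in capitals to show how the regions differ in CpG content. They are followed by the summits of the lost regions at the promoters of RASA3 and ADAP1. All are plus-strand sequence of hg38, 5′ to 3′.
RASA3 intronic region, chr13:114115973-114116173: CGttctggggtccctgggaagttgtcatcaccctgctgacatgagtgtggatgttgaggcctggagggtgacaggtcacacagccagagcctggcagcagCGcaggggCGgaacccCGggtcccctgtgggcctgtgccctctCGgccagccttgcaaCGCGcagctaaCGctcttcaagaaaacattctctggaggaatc
ADAP1 intronic region, chr7:946170-946370: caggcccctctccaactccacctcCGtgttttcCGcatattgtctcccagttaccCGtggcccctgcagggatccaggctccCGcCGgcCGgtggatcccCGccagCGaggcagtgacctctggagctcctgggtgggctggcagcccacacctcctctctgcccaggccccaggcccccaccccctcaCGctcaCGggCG
TBC1D22A intronic region, chr22:46934735-46934935: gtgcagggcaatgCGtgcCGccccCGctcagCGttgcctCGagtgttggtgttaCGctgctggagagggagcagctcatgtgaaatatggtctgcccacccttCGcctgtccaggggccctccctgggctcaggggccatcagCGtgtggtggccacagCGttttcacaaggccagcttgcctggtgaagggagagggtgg
RASA3 promoter region, chr13:114132230-114132430: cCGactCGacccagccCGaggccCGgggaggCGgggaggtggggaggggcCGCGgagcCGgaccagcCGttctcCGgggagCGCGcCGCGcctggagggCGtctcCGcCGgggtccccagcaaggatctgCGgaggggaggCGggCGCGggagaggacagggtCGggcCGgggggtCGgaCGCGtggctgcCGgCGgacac
ADAP1 promoter region, chr7:954196-954396: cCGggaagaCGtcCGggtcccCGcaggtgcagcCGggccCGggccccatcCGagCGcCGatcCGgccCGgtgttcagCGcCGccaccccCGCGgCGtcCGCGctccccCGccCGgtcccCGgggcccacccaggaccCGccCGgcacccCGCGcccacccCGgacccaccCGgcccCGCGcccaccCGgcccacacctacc

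The 3 intronic regions contained 8, 11 and 9 CpGs in this window in the order of printing. The lost promoter regions of RASA3 and ADAP1 contained 28 and 30. Promoter here means the canonical start of the gene, and the summits of these promoter regions also lay in introns. The ADAP1 intronic summit lay 454 bp from the start of a shorter ADAP1 transcript. The median was 18 over all regions, 10 over all lost regions, 18 over all gained regions and 21 over regions called in all 4 libraries. The 10 lost regions of the 4 windows had from 4 to 30 CpGs with a median of 9.5.

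RASA3, at chr13:113977783-114132623 on the minus strand, was the gene of the 4 whose window lost every peak. H3K27ac peaks covered 2.46 kb of its window in DMSO 1 and 2.53 kb in DMSO 2, while both I-BET151 libraries stood at 0 kb. No peak of either I-BET151 library lay in the 254.841 kb window. The DMSO mean was 2.50 ± 0.0552 kb (SD, n = 2), and the difference was -2.50 kb. Among the 303 genes with peaks in each DMSO library and none in I-BET151, RASA3 had the largest mean covered length in DMSO, ahead of SYT12 at 2.41 kb. Of the 15184 protein-coding genes with a peak in their window, both I-BET151 libraries lay below both DMSO libraries at 44.4% and above them at 12.5%, and the median difference was -0.094 kb.

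**Figure D1:**
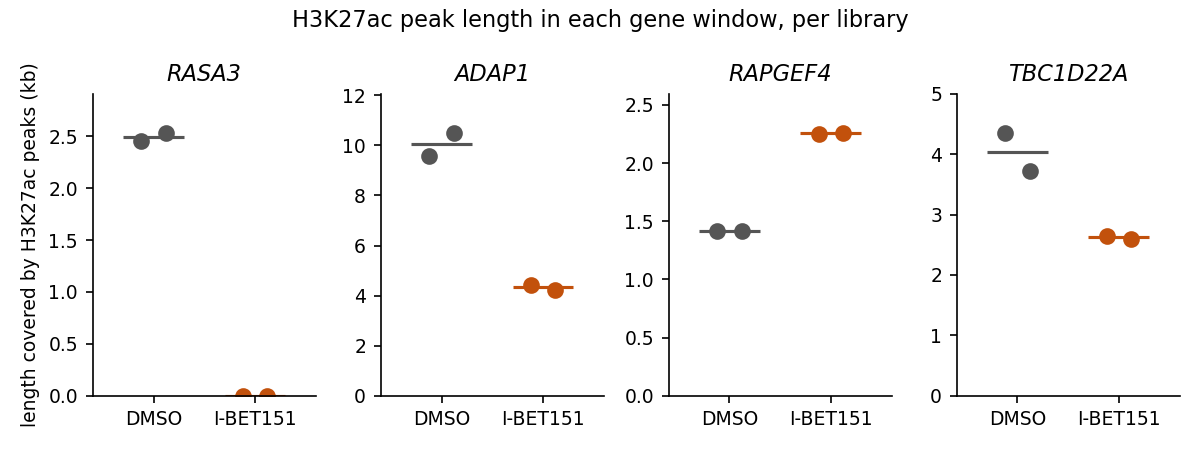
Length covered by H3K27ac peaks (kb) in the body of each gene and 50 kb either side, with 1 point per library and a horizontal line at the mean of 2 libraries. Both I-BET151 libraries lie below both DMSO libraries at RASA3 (0 kb against 2.46 and 2.53 kb), ADAP1 and TBC1D22A, and above both at RAPGEF4.

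The RASA3 window held 7 regions, of which 5 were lost. The strongest lay in an intron, 16550 bp into the gene from the canonical transcription start. Its summit was covered by 174 reads in DMSO 1 and 215 reads in DMSO 2, and the fold over the local input was 11.2 and 18.5. Scaled to 1000000 ChIP reads of each library (written per M), with depth estimated from the peak lists, these were 21.9 and 21.8 reads per M. The 2 DMSO libraries were thus close to each other. The region was not called in I-BET151, where a call would have needed at least 36 and 40 reads (4.64 and 4.98 per M). These needs assume a local input as high above its genome-wide level as in DMSO. They are lower bounds, since they rest on the p-value at the summit and leave out peak length.

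Further lost regions flanked this one in the same part of the gene. At 17625 bp from the start the summit had 9.04 and 8.54 reads per M in DMSO 1 and DMSO 2, and at 13156 bp it had 12.9 and 11.3. Between them and the start, 2 weaker regions were called in a single DMSO library each, 1 in DMSO 1 with 8.04 reads per M and 1 in DMSO 2 with 8.94. A separate lost region lay 67239 bp from the start, with 12.6 and 10.9 reads per M. For the 3 other intronic lost regions a call in I-BET151 would have needed between 2.71 and 6.10 reads per M, below every DMSO value.

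The promoter of RASA3 was also lost. The summit at chr13:114132087-114132530 was 293 bp from the canonical start, and it had 157 reads in DMSO 1 and 195 in DMSO 2, or 19.7 and 19.8 reads per M. Its fold was 2.65 and 3.47, with the input itself at 71.8 and 59.7 times its genome-wide level. A call in I-BET151 would have needed 12.9 and 13.2 reads per M at such an input level, so this region was closer to the limit of detection than the intronic ones, and it ranked lowest of the 10 lost regions at 844.

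ADAP1, at chr7:897900-955407 on the minus strand, had the largest difference in covered length of the 4 genes. Peaks covered 9.58 and 10.5 kb of the window in DMSO 1 and DMSO 2 and 4.44 and 4.24 kb in I-BET151 1 and I-BET151 2, with means of 10.0 ± 0.651 kb and 4.34 ± 0.141 kb (SD, n = 2 each). Both I-BET151 libraries lay below both DMSO libraries, and the difference was -5.70 kb, a change of -56.8%. At 19 of the 20007 genes, ADAP1 included, the difference was as negative or more so. Only 15184 of these genes had a peak in their window. Windows of neighbouring genes can overlap and share peaks, so such counts, here and below, are not counts of separate loci. This window also takes in the promoters of GET4, COX19 and CYP2W1, and transcripts of COX19 are annotated across ADAP1, so that a peak in the gene body cannot be assigned to 1 of them by position.

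Both lost regions of the window lay in the ADAP1 gene body. The top-ranked lost region was 1802 bp long, at chr7:945067-946868, and its summit lay 8410 bp from the canonical start and 454 bp from the start of a shorter ADAP1 transcript. The summit had 243 reads in DMSO 1 and 303 in DMSO 2, which is 30.5 and 30.8 reads per M, and a call in I-BET151 would have needed 10.3 and 10.6. The second lost region was the canonical ADAP1 promoter, 384 bp from the start, with 25.5 and 24.3 reads per M in DMSO and a need of 12.2 and 12.4 in I-BET151. In both regions the DMSO libraries were close to each other and well above that need.

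A further region of the ADAP1 gene body stayed called but was smaller. It lay 28401 bp from the canonical start and 937 bp from the nearest start of a coding transcript, and it was covered by peaks over 2111 and 2108 bp in DMSO and over 853 and 545 bp in I-BET151. Its summit had 29.6 and 26.7 reads per M in DMSO 1 and DMSO 2 and 14.2 and 13.8 in I-BET151 1 and I-BET151 2, so the groups did not overlap and the ratio of means was 0.497. Beside it, 3 regions were called only in DMSO 2, with between 9.65 and 14.2 reads per M. DMSO 2 was also the deepest library by estimated depth, with 9.84 M ChIP reads against 7.96 M in DMSO 1. The part of depth in these 3 calls was not tested.

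The neighbours of ADAP1 stayed called in all libraries, with shorter peaks at GET4 and CYP2W1. At the promoter of GET4, which takes part in the insertion of tail-anchored membrane proteins, the summit had 25.6 and 23.8 reads per M in DMSO and 21.5 and 20.9 in I-BET151, and peaks covered 1623 and 1523 bp against 908 and 825 bp. The promoter of COX19, an assembly factor of cytochrome c oxidase, had 42.3 and 38.8 against 32.5 and 37.9. Its fold moved the other way, from 4.47 and 5.97 to 7.67 and 8.51, while the input level at the summit was 91.4 and 68.0 times its genome-wide level in DMSO and 42.0 and 44.7 times in I-BET151. A region 2046 bp upstream of COX19 had more reads in I-BET151, with 34.4 and 31.0 per M in DMSO and 44.9 and 43.5 in I-BET151. A weaker one 3417 bp upstream overlapped between the groups, with 19.3 and 16.2 against 19.1 and 23.5. At CYP2W1, a cytochrome P450 gene, the summit had 16.8 reads per M in DMSO 2 and 11.1 and 12.6 in I-BET151, and the reads of DMSO 1 could not be resolved. The peaks there covered 944 and 1053 bp in DMSO against 322 and 588 bp in I-BET151.

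**Figure D2:**
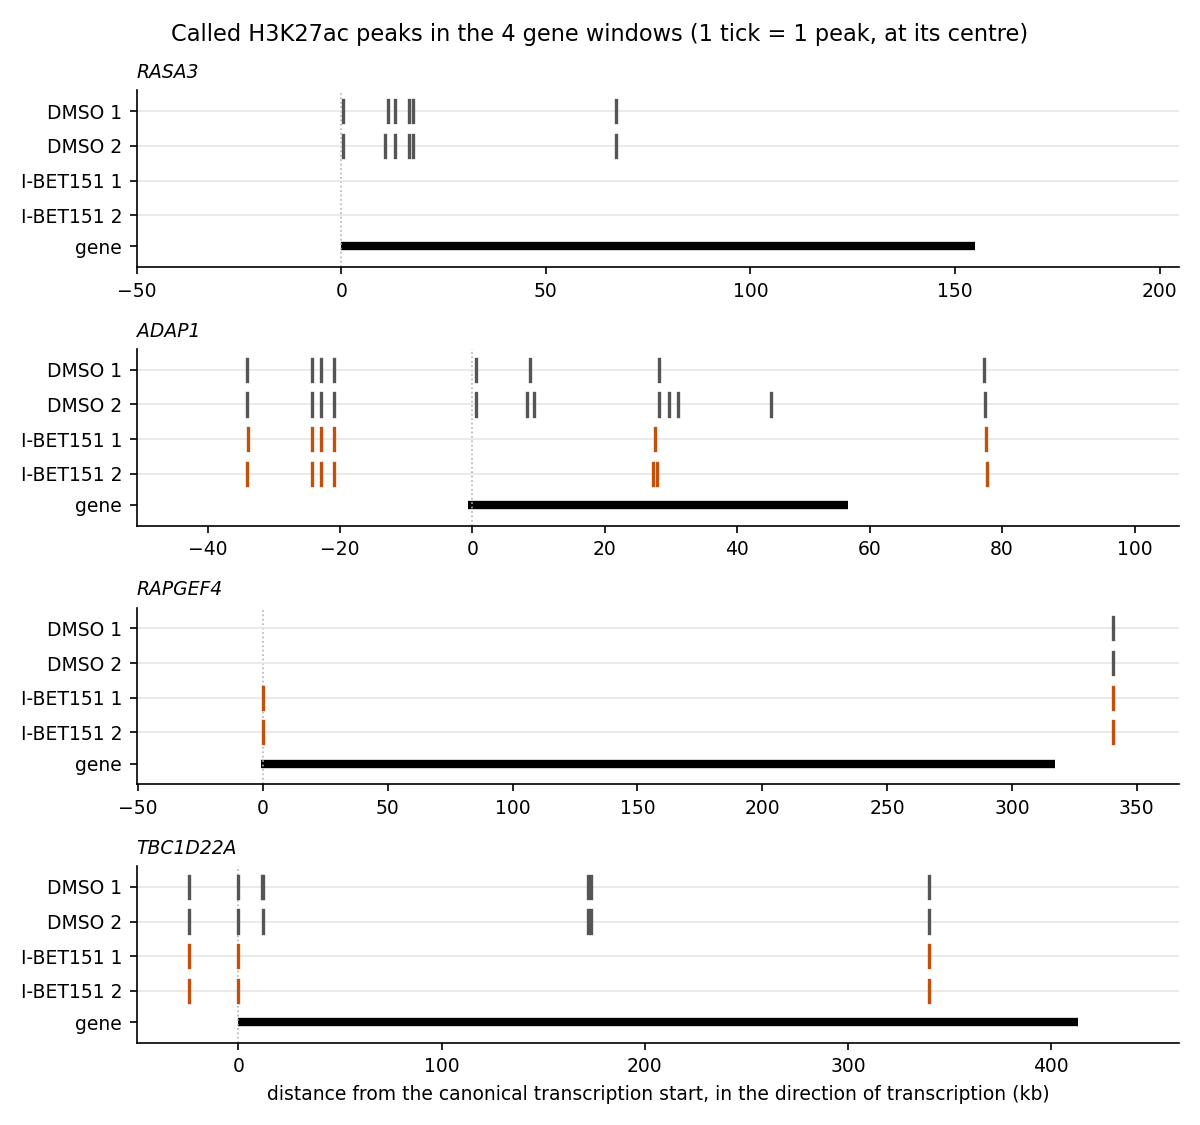
Position of every called H3K27ac peak (1 tick per peak, at its centre) in the 4 gene windows and 4 libraries, on an axis of distance from the canonical transcription start in kb in the direction of transcription; the black bar is the gene. The I-BET151 rows are empty at RASA3, lack the ticks near 0 and 8 kb at ADAP1, keep the tick at the start of TBC1D22A, and have an added tick at the start of RAPGEF4.

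TBC1D22A, at chr22:46762617-47175699 on the plus strand, differed from RASA3 and ADAP1 in that its promoter kept H3K27ac. Peaks covered 4.35 kb of the window in DMSO 1 and 3.73 kb in DMSO 2, against 2.65 and 2.59 kb in I-BET151, with means of 4.04 ± 0.444 kb and 2.62 ± 0.0424 kb (SD, n = 2 each). The groups did not overlap, and the difference was -1.42 kb. A difference at least as negative was found at 829 of the 20007 genes. At the promoter region, 218 bp from the canonical start, the summit had 37.3 and 34.1 reads per M in DMSO and 32.1 and 35.6 in I-BET151, and the groups overlapped.

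The lost regions of TBC1D22A lay within the gene, away from its canonical start. The top-ranked one lay 172185 bp into the gene, at chr22:46934603-46935031. It had 116 reads at its summit in DMSO 1, or 14.6 per M, and the reads in DMSO 2 could not be resolved. Its fold of 22.7 and 21.4 was the highest of the 27 regions in both DMSO libraries, at an input level only 3.26 times the genome-wide level in DMSO 1. A call would have needed at least 16 reads in I-BET151 1 and 19 in I-BET151 2 (2.06 and 2.36 per M). The fewest reads at any resolved peak of I-BET151 1 were 17, so the need of 16 is too low to be taken as enough. A second lost region lay 173640 bp from the start with 12.9 and 11.0 reads per M, and another lay 12027 bp from the canonical start and 750 bp from the start of a shorter coding transcript, with 10.2 and 9.15. Beside the latter, a weak region at an untranslated exon was called in DMSO 1 alone, with 5.02 reads per M.

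A further intronic region of TBC1D22A, 339718 bp from the start at chr22:47102175-47102554, was kept and was higher in I-BET151. Its summit had 13.4 and 12.1 reads per M in DMSO and 18.3 and 18.7 in I-BET151, a ratio of means of 1.45 with no overlap of the groups. The fold was 4.65 and 6.00 in DMSO and 5.66 and 16.9 in I-BET151, where the high value of I-BET151 2 came with an input level of 2 against 9 in I-BET151 1. Upstream of the gene, the promoter of CERK, the ceramide kinase gene, was called in all 4 libraries with 36.9 and 33.4 against 39.7 and 38.8 reads per M.

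RAPGEF4, at chr2:172735274-173052893 on the plus strand, was the only 1 of the 4 with more covered length in I-BET151. Peaks covered 1.41 kb of its window in each DMSO library and 2.25 and 2.26 kb in I-BET151 1 and I-BET151 2, with means of 1.41 ± 0 kb and 2.26 ± 0.00495 kb (SD, n = 2 each), a difference of 0.844 kb. The DMSO length was not at RAPGEF4 itself but at the promoter of MAP3K20, a stress-activated kinase gene beyond its 3′ end, so no peak lay within the RAPGEF4 gene in either DMSO library. A difference at least as large was found at 180 of the 20007 genes.

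The gained region was the RAPGEF4 promoter, at chr2:172735540-172736350. Its summit lay 247 bp downstream of the canonical start, in an intron of that transcript, and close to the start of the antisense transcript RAPGEF4-AS1. It had 245 reads in I-BET151 1 and 249 in I-BET151 2, or 31.6 and 31.0 per M, with a fold of 7.35 and 8.83. Neither DMSO library had a peak there. If their local input stood as high above its genome-wide level as in I-BET151, a call would have needed at least 74 and 85 reads. That is 9.30 and 8.64 per M in DMSO 1 and DMSO 2. Their reads at this site are not known. By p-value the peak stood 30.0% and 28.0% of the way down the lists of I-BET151 1 and I-BET151 2. The MAP3K20 promoter had 44.5 and 41.4 reads per M in DMSO and 52.1 and 50.6 in I-BET151. H3K27ac does not carry a strand, so RAPGEF4 and RAPGEF4-AS1 cannot be told apart at this region.

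**Figure D3:**
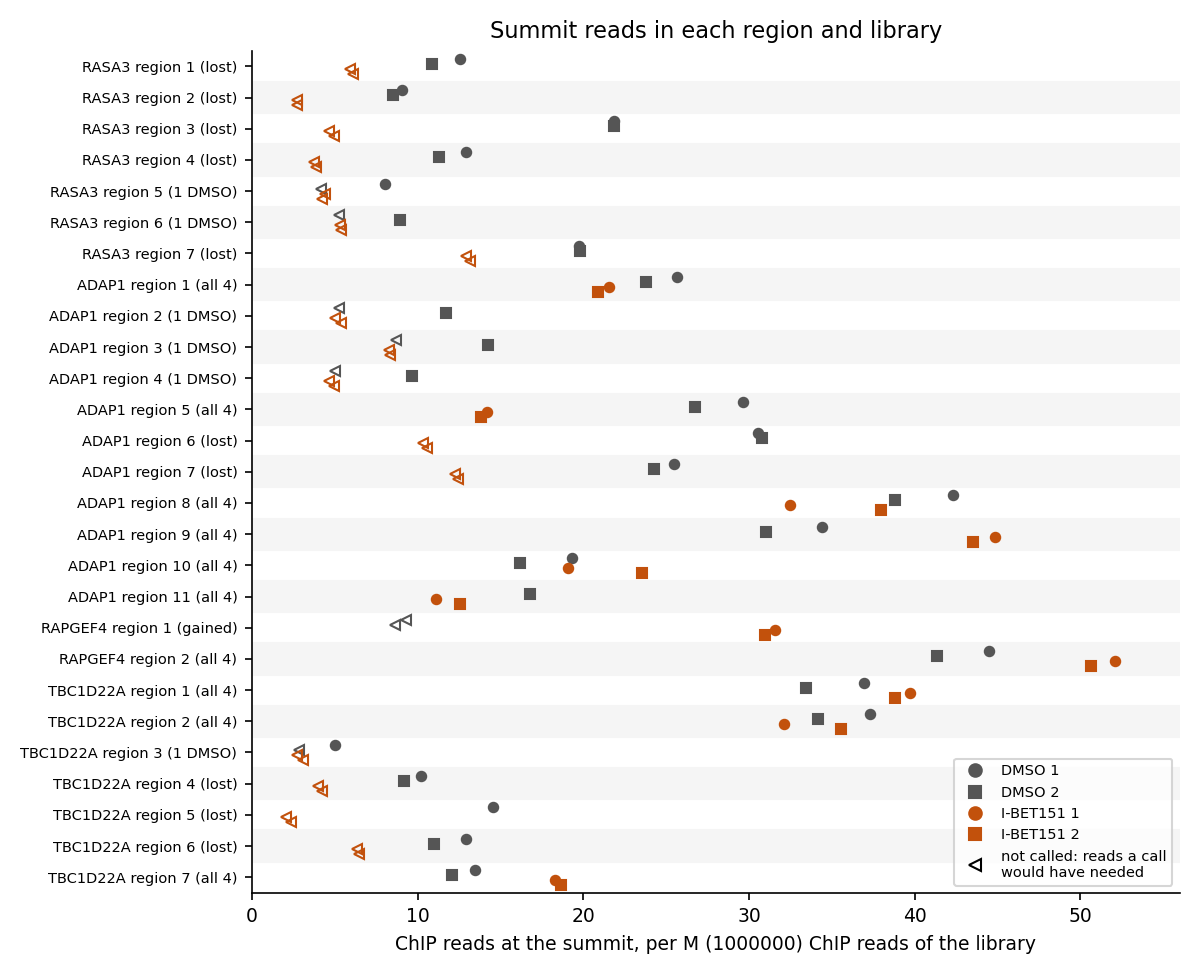
ChIP reads at the summit per M (1000000) ChIP reads of the library (x axis) for each of the 27 regions (rows, with their call), with 1 point per library. Open triangles mark the least reads a call would have needed, by p-value alone, in a library without a peak. At RASA3 region 3 the DMSO points at 21.9 and 21.8 lie to the right of the I-BET151 triangles at 4.64 and 4.98, and at RAPGEF4 region 1 the I-BET151 points at 31.6 and 31.0 lie to the right of the DMSO triangles.

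Across the 4 windows, the regions that stayed called did not move in 1 direction. Reads were resolved in all 4 libraries at 9 of the 10 regions called in all of them. Both I-BET151 libraries were below both DMSO libraries in reads per M at 3 of the 9, above them at 4, and overlapped at 2. Over the 10051 such regions of the genome, 31.1% were lower and 29.9% were higher in both I-BET151 libraries, and the median ratio of I-BET151 to DMSO was 1.00. The ratios of the members ran from 0.497 at the kept region of ADAP1 to 1.45 at the kept intron of TBC1D22A, and both lay outside the range of 0.685 to 1.41 that held the middle 90% of regions.

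Both promoters and introns were found among the kept and the lost regions. Of the 10 lost regions, 4 lay within 3 kb of a start of a protein-coding transcript and 6 did not, and all 10 had their summits in introns. Of the 10 regions called in all libraries, 8 lay within 3 kb of such a start. RASA3 and ADAP1 lost their canonical promoters, TBC1D22A kept its own, and RAPGEF4 gained its own.

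Some lost regions lay on tandem repeats, which the choice of the genes did not use. In 3 of the 10 lost regions the 201 bases around the summit held a run of at least 20 bases that occurred more than once, and none of the other regions of the windows did. Such runs were found in 1.86% of all regions, 3.17% of lost regions and 2.71% of gained regions. The clearest case was the lost RASA3 region 17625 bp from the start, where a unit repeated every 37 bases and the repeats covered 147 of the 201 bases, shown in capitals because they make up most of the window.
RASA3 repeat region, chr13:114114898-114115098: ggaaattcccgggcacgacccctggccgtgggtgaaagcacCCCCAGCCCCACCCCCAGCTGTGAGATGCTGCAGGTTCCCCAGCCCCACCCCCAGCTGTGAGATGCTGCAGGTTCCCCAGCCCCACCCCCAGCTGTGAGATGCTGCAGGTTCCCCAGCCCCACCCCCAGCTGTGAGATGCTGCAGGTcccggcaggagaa
At the RASA3 region 13156 bp from the start a run of 34 bases recurred after 35 bases, and at the TBC1D22A region 173640 bp from the start a run of 21 bases recurred after 38. The strongest regions of RASA3 and TBC1D22A held no such run. Repeats affect how reads are placed by an aligner, and their part in these calls was not tested.

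The 3 loci with lost regions also lay near the ends of their chromosomes. Summits of the 10 lost regions were from 0.232 to 4.04 Mb from an end, and the gained region of RAPGEF4 was 69.5 Mb from one. Regions called in all 4 libraries lay as near, from 0.877 to 0.989 Mb in the ADAP1 window and from 3.72 to 4.08 Mb in that of TBC1D22A. The distance to an end therefore belongs to the loci and does not separate lost from kept regions within them. Over the genome, 17.0% of all regions, 25.5% of lost regions and 14.9% of gained regions lay within 5 Mb of an end. Since the 10 regions came from 3 loci, they are not 10 separate observations, and both the repeats and the chromosome ends were looked at after the sequences had been seen.

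Letters of 8 motifs were searched on both strands in the same 201 bases. The AP-1 letters TGANTCA were in 0 of the 10 lost regions, against 2.29% of all regions and 3.91% of lost regions, and in 1 kept region, the TBC1D22A intron with more reads in I-BET151. TGGGAA, the letters bound by RBPJ, were in 2 of the 10 lost regions, both in RASA3 introns, and in 5 of the 27 in all, against 13.1% of all regions and 16.9% of lost regions. CATTGT, bound by SOX proteins, was in the kept region of ADAP1 and in 2.55% of all regions. TGTTTAC for FOXA (0.578% of all regions), AGATAA for GATA factors (1.23%), GGAATG for TEAD (6.44%), ATCGAT for HNF6 (0.273%) and TAATTA for homeobox proteins (0.273%) were in none of the 27 regions, which says only that these letters are not in these windows.

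No close relative of the 4 genes was covered in DMSO and bare in I-BET151, as RASA3 was. Only 303 of the 14458 genes covered in both DMSO libraries were bare in I-BET151, so its absence from so few relatives does not set the members apart. RASA2, another RAS GAP, had 2.26 and 2.52 kb of peaks in DMSO against 2.26 and 2.19 kb in I-BET151, with overlapping groups. RASAL1 had more in I-BET151, at 1.59 and 1.56 kb against 1.43 and 1.10 kb in DMSO. RASA4 had no peak in any library, and its near-identical copy makes read placement there uncertain. ADAP2, the paralog of ADAP1, was higher in I-BET151, with 0.908 and 0.883 kb against 0.818 and 0.764 kb. RAPGEF3, which encodes EPAC1, went opposite to RAPGEF4, with 3.34 and 3.46 kb in DMSO against 2.52 and 2.46 kb, and with 1 lost region. TBC1D22B had 1.48 and 1.43 kb in DMSO against 1.43 and 1.43 kb, again with overlap. Whether the members differed from these relatives was not tested.

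Regulators of the same GTPase families were described from 4 lists of 87 genes without the 4 members, of which 83 had a peak in the window. The covered length was lower in both I-BET151 libraries than in both DMSO libraries at 42 of the 83 genes (50.6%, beside 44.4% of all genes) and higher at 12 (14.5%, beside 12.5%). The higher count was 19 without DMSO replicate 1 and 21 without I-BET151 replicate 2, where 22.9% and 28.7% of all genes were higher, and 5 with 100 kb either side, where 12.1% were. By list, the groups did not overlap with I-BET151 lower at 2 of 9 RAS GAPs, 10 of 22 ARF GAPs, 10 of 17 RAP regulators and 20 of 35 TBC-domain GAPs for RABs, and with I-BET151 higher at 1, 4, 3 and 4. The median difference over the 83 genes was -0.135 kb, beside -0.094 kb over all genes.

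The largest differences in the lists were smaller than that of ADAP1, which was chosen for the top-ranked lost region of the same contrast. The fall at ACAP3 was larger than that at RASA3, and the falls at ARAP1 and SGSM2 were larger than that at TBC1D22A. ACAP3, an ARF GAP, had 9.69 and 9.20 kb in DMSO against 5.89 and 6.69 kb in I-BET151, a difference of -3.15 kb. ARAP1, another ARF GAP, had a difference of -2.01 kb, and SGSM2, a TBC-domain protein, one of -1.69 kb. In the other direction, AGAP3 had 5.89 and 6.25 kb in DMSO against 6.96 and 6.36 kb in I-BET151, a difference of 0.592 kb. TBC1D8 and TBC1D10B, both with a TBC domain, had differences of 0.519 and 0.513 kb. The difference of 0.844 kb at RAPGEF4 was above all list genes with more coverage in both I-BET151 libraries. RAPGEF4 too was chosen on this contrast, so the places of ADAP1 and RAPGEF4 beyond the lists are not separate findings.

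**Figure D4:**
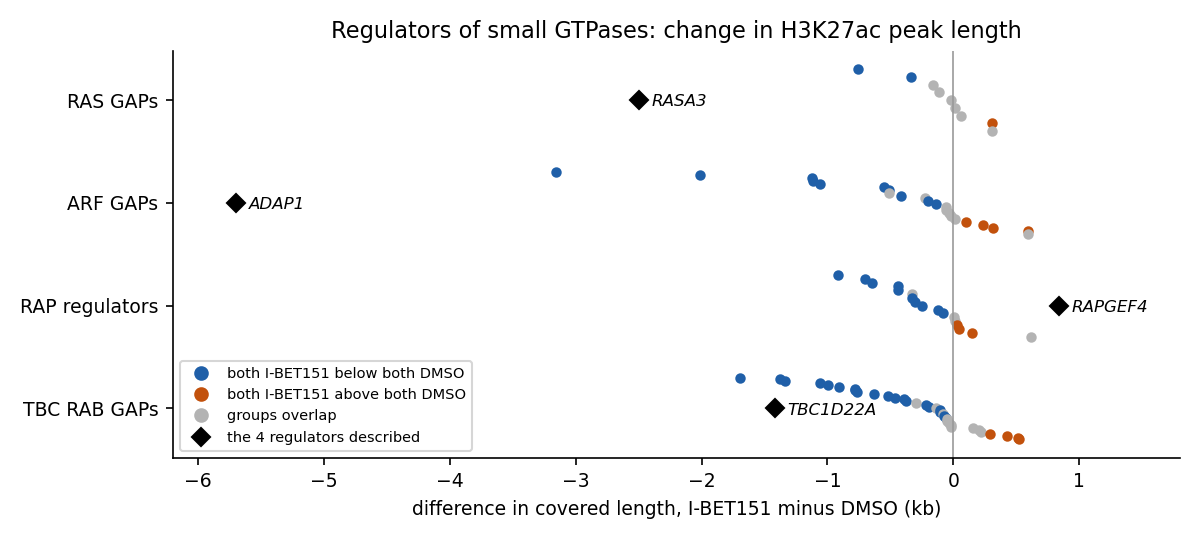
Difference in covered length, I-BET151 mean minus DMSO mean (kb, x axis), for the 83 list genes with a peak, by list, 1 point per gene; black diamonds are the 4 regulators described, placed beside the list of their family. ADAP1 at -5.70 kb and RASA3 at -2.50 kb lie to the left of all genes of their lists, TBC1D22A at -1.42 kb lies among its list, and RAPGEF4 at 0.844 kb lies to the right. The 4 regulators were chosen on this same contrast.

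The profiles most like those of the members were found by the summed absolute difference in covered length over the 4 libraries. Protein-coding genes whose windows overlap that of the member, such as COX19 for ADAP1, were left out because they share its peaks. SYT12, a synaptotagmin gene, was nearest to RASA3 at 0.176 kb, with 2.46 and 2.36 kb in DMSO and none in I-BET151, followed by the unnamed gene ENSG00000267385 at 0.348 kb. ADCK5 was nearest to ADAP1 at 2.61 kb, followed by CFAP74 at 2.87 kb. TRIM2 was nearest to RAPGEF4 at 0.156 kb, and ENSG00000288637 had the same values. DIDO1 and GID8 were nearest to TBC1D22A, both at 0.363 kb and with the same values as each other.

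The marks of the cells bear on these values. Of 9 genes that mark PPs, 8 were covered in all 4 libraries and PTF1A was at 0, and their summed length was 45.9 and 43.4 kb in DMSO against 53.0 and 51.1 kb in I-BET151. The windows of POU5F1 and NANOG, which mark pluripotent cells, and of AFP and ALB, which mark liver, were at 0 in all libraries, as were those of the endocrine markers NEUROG3 and CHGA. The window of INS, also endocrine, had 6.37 and 6.63 kb of peaks in DMSO against 8.08 and 8.52 kb in I-BET151. That window is 101.443 kb long and its peaks were not placed within it, so they are not assigned to INS. CDX2, which marks intestine, had 9.52 to 10.9 kb, but its window takes in the PDX1 gene, so these peaks cannot be assigned to CDX2. The windows of the 2 mesenchymal markers PDGFRB and COL1A1 were covered in all libraries. Their summed length was 3.62 and 4.37 kb in DMSO against 1.94 and 1.82 kb in I-BET151. This is the direction of RASA3, ADAP1 and TBC1D22A, and also of 44.4% of all protein-coding genes with a peak in the window. The peaks in these 2 windows were likewise not assigned to the marker genes. Of 2 markers of blood and endothelium, PTPRC was at 0 and PECAM1 was covered over 0.307 and 0.528 kb in DMSO but not in I-BET151. The part of such cells in the lost regions was not tested, and in a bulk assay fewer cells with a mark cannot be told apart from less acetylation per cell.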

How the data were processed

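H3K27ac was measured in 4 ChIP-seq libraries. As the study's methods state, the authors mapped the read pairs to hg38 by Bowtie2 (2.2.5 in the submitters' processing notes), removed duplicates and called peaks with MACS2 2.1.2 at default settings. Each H3K27ac library has its own deposited list, and its fold and p-values resolve to a ChIP level scaled to an input level. The deposited lists hold, for each peak, its interval, its summit, the fold at the summit as a ratio to the local input, and both p- and q-values as −log10. Duplicate removal limits how high a peak can reach, and the q-value threshold of 0.05 leaves out weaker acetylation.

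Peaks were set against GENCODE release 44 (hg38), and 79.9, 79.8, 82.1 and 84.2% of summits lay within 3 kb of a coding transcript's start. Whole reads at each summit were recovered from fold (MACS2's pseudocount of 1) and p-value, with a genome size of 2.7e+09 bp for the input's genome-wide level. The share of peaks resolved was 98.7 to 99.2%, and of the single solutions 100% fell within tolerance of whole reads. Depth was not counted from reads. It was estimated from the lowest input level at any called peak, the shortest peak width, the genome size and the scaling of ChIP to input. Estimated ChIP depth was 7.96, 9.84, 7.76 and 8.04 M (1000000) reads in DMSO 1, DMSO 2, I-BET151 1 and I-BET151 2. Estimated input depth was 3.04, 2.89, 3.04 and 2.67 M in the same order, and the lists held 13606, 14248, 12887 and 12312 peaks. Reads carry no molecular identifiers, so summit reads bound counting error only. By p-value alone, a call at the genome-wide input level would have needed 10 or 11 reads. The fewest reads at any resolved peak were 14, 18, 17 and 14 in DMSO 1, DMSO 2, I-BET151 1 and I-BET151 2. The reads said to be needed for a call are therefore lower bounds, since peak length was not taken into account. Recovery, merging and covered length were tested on simulated data (Python 3.11.15, numpy 2.4.6, pandas 2.3.3, scipy 1.17.1).

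Groups and replicate numbers came from the library titles. No test was run, since the members were chosen on the same contrast. The members, the gene lists and the motifs were chosen with earlier results of these data known. Genes named are the members, coding genes with a start within 3 kb of a region in their windows, 6 paralogs, the 3 largest differences in each direction among list genes whose groups did not overlap, and the 2 nearest profiles of each member. Input libraries were not analysed here as separate samples. The sequence of the gained region is not reported here.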

Additional observations from a re-analysis of the deposited data

Results flagged for a closer look

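The inputs gave a signal outside the comparisons. At the summits of the peaks in the 4 windows the local input level was a median of 26.1 times its genome-wide level in DMSO 1, 30.0 times in DMSO 2, 42.0 times in I-BET151 1 and 40.7 times in I-BET151 2. Over all resolved peaks of each list the median was 42.6, 37.8, 38.5 and 40.7 times. The peaks behind these medians differ between libraries, with 21 and 24 summits in DMSO and 11 and 12 in I-BET151.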

How the results depend on the processing

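The 12 values were recomputed under other settings, 106 values in all: 99 stayed within the spread between libraries (counts within 1.5 times), 7 moved, and none changed direction. The 4 region calls were the same in all 32 of theirs, which are among the 99, but the genes were chosen on these calls. Leaving out 1 library cannot change a call made in both libraries of a group and neither of the other. Such top-ranked regions also pass a stricter q-value or rank cut, so these values were largely fixed by the choice. With 10 kb either side, the difference was -4.50 kb at ADAP1 and 0.802 kb at RAPGEF4, and with 100 kb either side 5 list genes were higher and 2 regions were gained, since other genes' peaks enter or leave the window. With the 12312 top-ranked peaks of each list the difference at RASA3 was -2.29 kb. Leaving out 1 library at a time gave 13 to 21 higher list genes, with 19 without DMSO replicate 1 and 21 without I-BET151 replicate 2. With the replicate numbers as a block, the differences at the 4 genes were unchanged by construction, 46 list genes were lower and 16 higher. A gene counted there when the differences of both numbered pairs had the same sign. The share of all genes under that looser rule was not computed, so these counts say nothing particular to the lists. The correlation of replicate deviations was 0.11 over 15184 genes, and with 2 pairs the libraries share only a number. Weaker acetylation below the calling threshold was not detectable in these lists.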
